A study of Homo sapiens with 9 samples.

Results

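The comparison of MELK siRNA with control siRNA in PC3 cells rests on 6 of the 9 arrays of the study, the 3 hybridized with RNA from cells given siRNA against MELK and the 3 from cells given a negative control siRNA, taken by their labels. PC3, a human cell line long established from prostate cancer, does not need androgen to grow. The knockdown cells received a pool of 4 siRNAs against MELK at 50 nM, and the control cells received the AllStars negative control siRNA at 50 nM. All were transfected with the same lipid reagent, and gene expression was measured 48 h later on Illumina bead arrays from total RNA. The other 3 arrays come from cells given a pool against UBE2C. That pool was of the same make as the MELK pool, at the same dose and time. These arrays are used here for the spread between arrays and to ask whether a change differs between the 2 pools. All 3 also entered the normalization, the detection filter and the choice of the tested probe.

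MELK, the maternal embryonic leucine zipper kinase, is a serine/threonine kinase of the AMPK-related family. Its transcript is raised in dividing cells and in many tumours, and it belongs to the genes that the transcription factor FOXM1 and the DREAM complex switch on for G2 and mitosis. The kinase has been reported to act on FOXM1, on the phosphatase CDC25B, on the translation factor EIF4B and on the signalling proteins MAP3K5 and the SMADs, and to bind the histone methyltransferase EZH2. RNA interference lowers a transcript through the Argonaute protein AGO2, and a pool of siRNAs can also act on other transcripts.

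The MELK pool and the control siRNA were bought from different suppliers. The knockdown and the make of the siRNA therefore cannot be told apart in a difference from control alone. Whether the 3 arrays of a group stand for separate cultures is not in the labels, and the p-values hence describe only how far these samples spread, a spread that may be technical. Between 18270 and 18661 of 47323 probes were above background on the 6 arrays, and precision is limited by having 3 arrays in each group. All 10 PC3 markers, among them VIM, CD44, CAV1 and EPCAM, were above background on all 6 arrays. Of the 8 markers of androgen-responsive luminal cells with a probe, KLK2, KLK3, FOLH1 and ACP3 were above background on none of the 6 and the other 4 on all. Of 17 fibroblast, endothelial and blood cell markers with a probe, 9 were above background on none, among them PTPRC, VWF, CDH5 and DCN. By contrast, PECAM1, CD14, ACTA2 and CD68 were above background on all 6 arrays. LUM was so on 3 MELK siRNA and 2 control arrays, and LYZ, PDGFRA and ITGAM on fewer. The summed normalized signal of the 8 measured ones was 1776 to 1946 on the MELK siRNA arrays and 2003 to 2274 on the control arrays, and none of them was called. Most of it came from CD68 (mean log2 signal 10.54 with MELK siRNA and 10.83 with control siRNA), while 6 of the 8 genes had values above 0 against control (median 0.14). Whether this sum bears on other results was not tested. The first UBE2C siRNA array stood apart, with a correlation over probes of 0.848 to 0.877 to the others, against 0.981 to 0.990 among those 8, and was left out of the fit.

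The targeted transcript was lower on every MELK siRNA array than on every control array. The tested MELK probe had a normalized log2 signal of 9.44, 9.36 and 9.32 with MELK siRNA, against 10.51, 10.38 and 10.50 with control siRNA. A second MELK probe had 8.27, 8.43 and 8.45 with MELK siRNA, against 9.49, 9.36 and 9.64 with control siRNA. The groups did not overlap on either probe, and the gap between them was many times the spread within a group. Means were 9.38 ± 0.06 with MELK siRNA and 10.46 ± 0.08 with control siRNA (SD, n = 3 each) on the tested probe, a log2 fold change of -1.09 (SE 0.09, adjusted p = 7.82e-06 in limma) that left 47.1% of the control level. The second probe gave -1.11 on the log2 scale, or 46.3% of the control level. A two-sided exact permutation test gave p = 0.1 on either probe, the lowest value possible with 3 against 3 arrays. MELK was also lower with MELK siRNA than with UBE2C siRNA, by a log2 difference of -0.90 (SE 0.10, adjusted p = 0.00036). The call of MELK against control was lost when the first UBE2C siRNA array was kept at equal weight, with the same log2 fold change. The adjusted p in limma was then 0.577, or 0.884 with a prior neither trended nor robust.

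**Figure D1:**
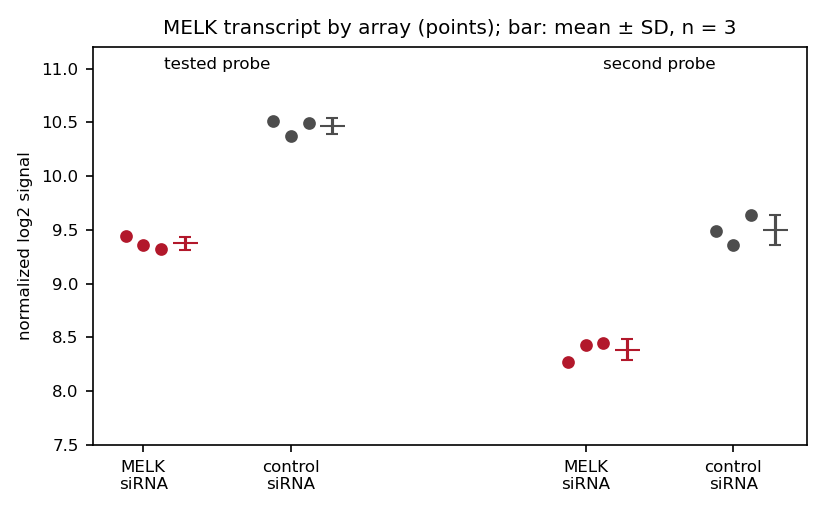
Normalized log2 signal of both MELK probes on each of the 3 MELK siRNA arrays (red) and the 3 control siRNA arrays (grey), with mean ± SD beside the points. On the tested probe the MELK siRNA arrays lie at 9.32 to 9.44 and the control arrays at 10.38 to 10.51, and on the second probe at 8.27 to 8.45 and 9.36 to 9.64.

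Across the transcriptome, most differences were small. Of 11428 genes tested, 630 passed an adjusted p of 0.05 (5.51%), 262 higher (2.29%) and 368 lower (3.22%) with MELK siRNA than with control siRNA. The median size of a called change was 0.46 on the log2 scale, 10 called genes passed a change of 1 (2 higher, 8 lower), and 245 passed 0.5 (92 higher, 153 lower). The median log2 fold change of all genes was 0.00, and 95% of the genes lay between -0.53 and 0.50. For 626 of the 630 called genes the 3 MELK siRNA arrays did not overlap the 3 control arrays, as was so for 25.7% of all genes tested (13.8% higher on all MELK siRNA arrays, 11.9% lower).

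The calls depend on the fit. With a prior spread that neither followed the signal level nor was robust, limma called 1 gene in the same 8 arrays, which was MELK. With a trended prior that was not robust it called 593. With all 9 arrays and a prior neither trended nor robust it called 0 genes, with 616 at an unadjusted p under 0.05. Leaving out MELK siRNA replicate 2 left 78 calls and leaving out MELK siRNA replicate 3 left 185. Leaving out control replicate 2 left 364, and a fit of the 6 arrays alone, like one without either remaining UBE2C siRNA array, called 356. Scaling each array to its median turned the majority, with 749 genes higher and 246 lower. The sign of the log2 fold change of each called gene was the same under all of these alternatives, but mostly could not change. The prior and the UBE2C siRNA arrays in the fit do not enter that difference. Where the groups do not overlap, as in 626 of the 630, leaving out 1 array cannot turn the sign. With the mean of a gene's probes in place of 1 probe, 624 of 630 kept their sign.

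Little of the difference from control was shown to be particular to the MELK pool. MELK siRNA set directly against UBE2C siRNA gave 2 called genes of 11428 (0.0175%), 1 lower (0.00875%) and 1 higher (0.00875%), MELK and UBE2C themselves; UBE2C was higher with MELK siRNA by a log2 difference of 1.25 (SE 0.08). No other gene had an adjusted p under 0.193 in that comparison. Each value below therefore describes MELK siRNA against this control, and the UBE2C siRNA value against the same control arrays is given for some of the genes.

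**Figure D2:**
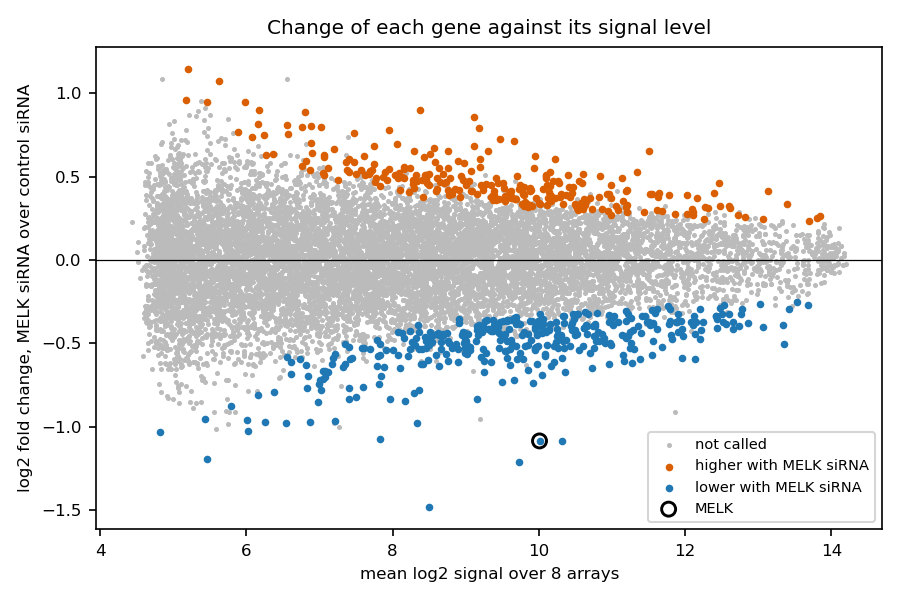
Log2 fold change of MELK siRNA over control siRNA for each of 11428 genes against its mean log2 signal over 8 arrays, with genes called higher in orange, called lower in blue and MELK ringed. The called genes lie outside a band that narrows as signal rises, and MELK, at -1.09, is among the 8 called genes that fell by more than 1.

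TRAM1L1, a homologue of a component of the endoplasmic reticulum translocon, had a normalized log2 signal of 5.59, 6.14 and 5.76 with MELK siRNA, against 4.39, 4.57 and 5.09 with control siRNA. TSN encodes translin, a nucleic acid binding protein that with its partner TSNAX helps to activate the RNA-induced silencing complex, and had 6.31, 5.98 and 6.19 with MELK siRNA, against 5.05, 5.32 and 4.91 with control siRNA. In both genes the MELK siRNA arrays lay clear of the controls. TRAM1L1 was above background on all 3 MELK siRNA arrays but on 1 of the 3 controls. Its MELK siRNA arrays were thus enough for the filter of 3 arrays above background, which may have favoured a high value there. The log2 fold change was 1.15 (SE 0.30, adjusted p = 0.0359) for TRAM1L1 and 1.07 (SE 0.24, adjusted p = 0.0189) for TSN. RANGRF, a factor that binds the nuclear transport GTPase Ran, had 5.43, 5.91 and 5.48 with MELK siRNA, against 4.49, 4.97 and 4.48 with control siRNA. It was 1.95-fold higher (adjusted p = 0.044), but none of the control values was above background. Its MELK siRNA arrays alone met the filter of 3 arrays above background, so the filter favoured a high value there. A lower bound gave each control array the larger of the probe's signal there and the dimmest signal of any probe above background. The MELK siRNA mean was set against the mean of these. This bound was also 1.95-fold, so it raised no control value and added nothing to the estimate. The sizes of such dim genes depend on the background treatment. In the authors' processed values, which have no background subtraction, the log2 fold change was 0.37 for TRAM1L1, 0.39 for TSN and 0.30 for RANGRF, whose call was lost (adjusted p = 0.0535), and with an offset of 50 it was 0.60, 0.63 and 0.49. RANGRF was called in 11 of 25 alternatives, TRAM1L1 in 16 of 25 and TSN in 20 of 26.

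Other large increases were those of PRIM2, CAPZA1 and PDP1. PRIM2, the large subunit of the primase that starts each new DNA strand, had 6.28, 6.66 and 6.80 with MELK siRNA, against 5.78, 5.55 and 5.72 with control siRNA (log2 fold change 0.90). CAPZA1, a subunit of the protein that caps actin filaments, had 8.39, 8.80 and 9.03 with MELK siRNA, against 8.01, 7.78 and 7.74 with control siRNA (log2 fold change 0.90, adjusted p = 0.00402). PDP1, the phosphatase that activates pyruvate dehydrogenase, had 6.79, 7.57 and 7.28 with MELK siRNA, against 6.37, 6.04 and 6.59 with control siRNA (log2 fold change 0.89). The 3 genes were higher on every MELK siRNA array, and the lowest of the MELK siRNA values was that of replicate 1 in each. The spliceosome component BCAS2 rose by 0.76 (0.68 on a second probe), the DNA repair phosphodiesterase TDP2 by 0.75 (0.38), the prefoldin subunit PFDN4 by 0.82 and the phospholipid remodelling gene SERAC1 by 0.77. LY96, the partner of the receptor TLR4, rose by 0.80, the methionine salvage enzyme ADI1 by 0.78, the inositol phosphate phosphatase MINPP1 by 0.76 and C18orf32 by 0.80. RPEL1 rose by 0.95 and TMA16, above background on 2 of 3 controls, by 0.95. RPEL1 is near-identical to the pentose phosphate gene RPE, so the copy measured is uncertain. The small nucleolar RNA SNORA80E, of the class that guides pseudouridylation, rose by 0.81, and the U3 RNA copies SNORD3C and SNORD3D, which work in ribosomal RNA processing and cannot be told apart with certainty, by 0.80 and 0.79.

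Smaller but tighter increases had the lowest adjusted p. IER3IP1, a small protein of the endoplasmic reticulum, had 9.59, 9.40 and 9.38 with MELK siRNA, against 8.56, 8.56 and 8.68 with control siRNA (log2 fold change 0.86, adjusted p = 0.0011). SUB1, the transcriptional coactivator PC4, had 9.96, 9.84 and 10.03 with MELK siRNA, against 9.26, 9.17 and 9.26 with control siRNA (log2 fold change 0.71, adjusted p = 0.00127). Neither gene's groups came within 0.5 of each other. CFDP1 rose by 0.73, the Golgi SNARE gene BET1 by 0.65, the HSP90 co-chaperone gene PTGES3 by 0.53, and RPL23AP64, a pseudogene copy of a ribosomal protein gene whose parent may share its signal, by 0.66. The stress granule gene G3BP1 rose by 0.62, although its second probe gave -0.08.

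The largest decrease was that of NPIPB3. NPIPB3, of the nuclear pore complex interacting protein family, had 8.30, 7.83 and 7.55 with MELK siRNA, against 9.18, 9.25 and 9.70 with control siRNA. ZFHX3, a large zinc finger and homeobox transcription factor, had 7.55, 7.55 and 6.95 with MELK siRNA, against 8.39, 8.34 and 8.54 with control siRNA. Both were lower on every MELK siRNA array, with a log2 fold change of -1.48 (SE 0.18, adjusted p = 0.00126) for NPIPB3 and -1.07 (SE 0.16, adjusted p = 0.00293) for ZFHX3. NPIPB5 was at -0.85, NBPF9 at -1.21, and NBPF10 at -1.08 with -0.14 and -0.17 on its other probes. The NPIPB and NBPF genes, CDK11A (-0.98) and PCDHA1 (-0.97) have near-identical copies or shared exons, so which gene was measured is uncertain. The microtubule-associated protein gene MAP1B was at -1.19, and at -0.77 (adjusted p = 0.141) without control replicate 3. Only 1 of 3 MELK siRNA arrays measured MAP1B above background, but all 3 control arrays did. The controls were thus enough for the filter, which may have favoured a high value there. SLC6A16, an orphan transporter gene, was above background on none of the MELK siRNA arrays. In the normalized values it was at least 1.88-fold lower there than with control siRNA, by the same bound set on the MELK siRNA arrays (adjusted p = 0.0398). The control arrays alone met the filter of 3 arrays above background, so the filter favoured a high value there. The fitted log2 fold change of SLC6A16 was -0.35 in the authors' processed values and -0.49 with an offset of 50. The bound did not hold in either, and the gene was called in 11 of 25 alternatives.

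RAI1, the chromatin-associated gene of Smith-Magenis syndrome, had 7.59, 7.68 and 7.44 with MELK siRNA, against 8.40, 8.33 and 8.48 with control siRNA (log2 fold change -0.83, and -0.43 on a second probe). BPTF, the largest subunit of the nucleosome remodeller NURF, had 5.25, 5.21 and 4.46 with MELK siRNA, against 5.86, 5.95 and 5.97 with control siRNA (log2 fold change -0.95), with 2 of the 3 MELK siRNA values above background. INTS1, a subunit of the Integrator complex, had 9.13, 9.19 and 9.24 with MELK siRNA, against 9.88, 10.01 and 9.86 with control siRNA (log2 fold change -0.73, adjusted p = 0.00126). In these genes no MELK siRNA array reached the lowest control. The zinc finger genes ZNF526, ZNF777 and ZNF503 were at -1.03, -0.85 and -0.57, and the homeobox gene MNX1 at -0.88. TFAP2A, the transcription factor AP-2 alpha, was at -0.74, but its second probe gave 0.00. The focal adhesion gene ZYX, which encodes zyxin, had 11.79, 11.83 and 11.95 with MELK siRNA, against 12.44, 12.45 and 12.47 with control siRNA (log2 fold change -0.60, adjusted p = 0.0011). The F-box gene FBXL18 was at -0.61, the mitochondrial gene OPA3 at -0.97, PRR11 at -0.98 and the tudor-domain gene TDRD1 at -0.96, the last above background on 2 of 3 MELK siRNA arrays.

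**Figure D3:**
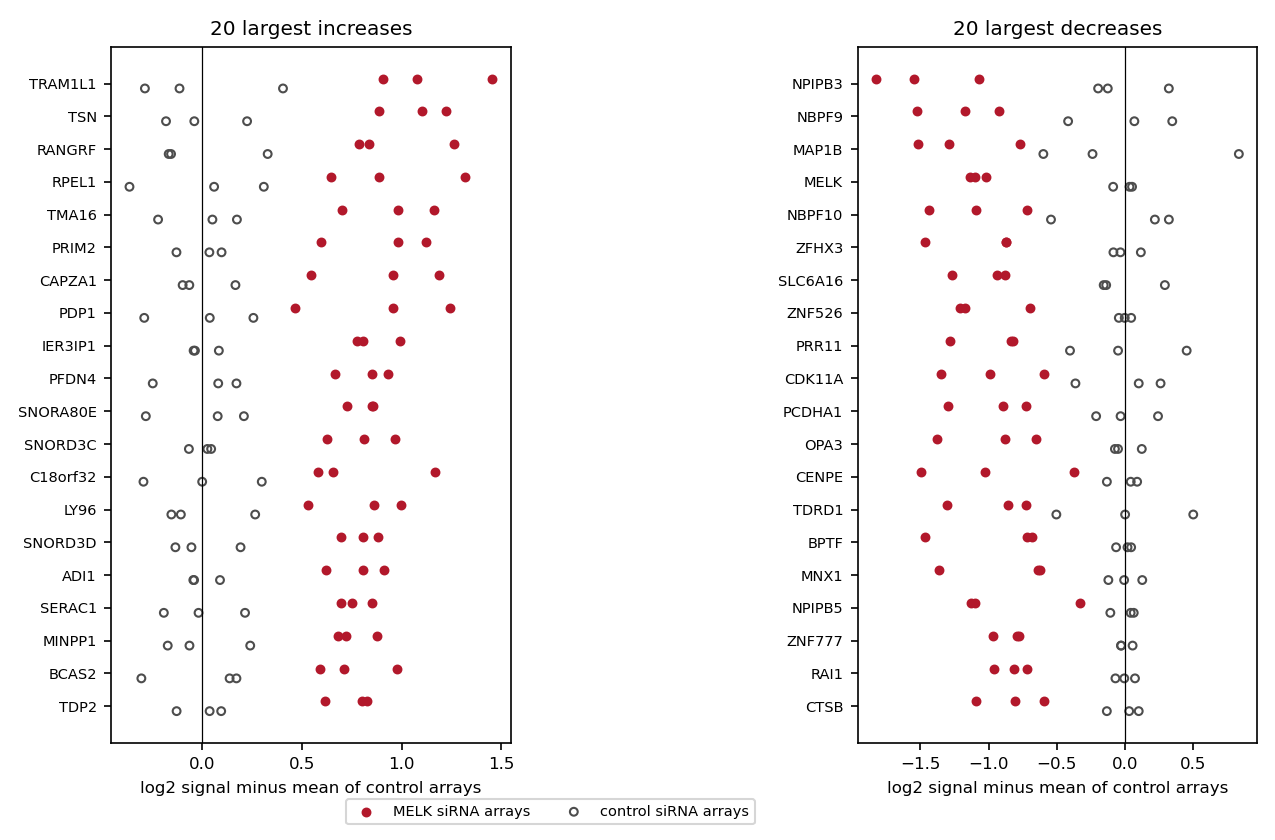
Log2 signal on each MELK siRNA array (filled red) and each control siRNA array (open grey) minus the mean of the control arrays, for the 20 largest called increases (left) and the 20 largest called decreases (right) among genes whose groups do not overlap. TRAM1L1 heads the increases at 1.15 and NPIPB3 the decreases at -1.48, and several genes spread over more than 0.5 among the MELK siRNA arrays.

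For several of these genes the UBE2C siRNA value against the same controls was smaller, although no difference between the pools was called. SERAC1 was at 0.77 with MELK siRNA and -0.08 with UBE2C siRNA, a difference between the pools of 0.85 (SE 0.24, adjusted p = 0.937). TRAM1L1 was at 1.15 with MELK siRNA and 0.37 with UBE2C siRNA, and RPEL1 at 0.95 with MELK siRNA and 0.30 with UBE2C siRNA. TSN was at 1.07 with MELK siRNA and 0.51 with UBE2C siRNA, and TMA16 at 0.95 with MELK siRNA and 0.47 with UBE2C siRNA. Among genes that fell, MNX1 was at -0.88 with MELK siRNA and -0.27 with UBE2C siRNA, TDRD1 at -0.96 with MELK siRNA and -0.37 with UBE2C siRNA, MAP1B at -1.19 with MELK siRNA and -0.61 with UBE2C siRNA, CDK11A at -0.98 with MELK siRNA and -0.45 with UBE2C siRNA, and the Arp2/3 subunit gene ARPC1B at -0.69 with MELK siRNA and -0.21 with UBE2C siRNA. Their adjusted p between the pools lay at 0.937. Other pairs were closer, such as CENPE at -0.97 with MELK siRNA and -1.04 with UBE2C siRNA, IER3IP1 at 0.86 with MELK siRNA and 0.76 with UBE2C siRNA, and NPIPB3 at -1.48 with MELK siRNA and -1.28 with UBE2C siRNA.

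Genes of the respiratory chain and of ATP synthase that were called were higher with MELK siRNA. The respiratory chain passes electrons from complex I and complex II through complexes III and IV to oxygen, and ATP synthase uses the proton gradient this builds. Of 18 measured subunits and factors of ATP synthase, 4 rose and 0 fell, and 15 had a positive value (median 0.15). Of 35 of complex I, 3 rose and 0 fell, with 27 positive (median 0.11). Of 23 of complexes II to IV, 3 rose and 0 fell, with 21 positive (median 0.10). Against these, 2.29% of all genes were called higher and 50.6% had a positive value, with a median of 0.00. These and the other lists were chosen with earlier results of these data known, so such contrasts are not tests. The contrasts of lists with all genes are also not matched for signal level. Of the dimmest 2857 genes 0.245% were called higher and 0.210% lower, and of the brightest 2857 3.96% and 6.48%. All 3 medians stayed positive under all 26 alternatives, at 0.10 to 0.23 for ATP synthase, 0.07 to 0.22 for complex I and 0.07 to 0.19 for complexes II to IV.

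Within ATP synthase, ATP5F1C, the gamma subunit that forms the rotating shaft, had 11.61, 11.69 and 11.76 with MELK siRNA, against 11.43, 11.03 and 11.41 with control siRNA (log2 fold change 0.40). ATP5MC3, one of the genes for the membrane ring, had 7.30, 7.33 and 7.13 with MELK siRNA, against 6.86, 6.63 and 6.71 with control siRNA (log2 fold change 0.52). The groups did not overlap in either, with control replicate 1 nearest to the MELK siRNA arrays. ATP5MK rose by 0.40 and ATP5MG by 0.25, with 0.26 on a second ATP5MG probe. In complex I, NDUFA9 had 11.37, 11.33 and 11.34 with MELK siRNA, against 10.89, 10.81 and 10.87 with control siRNA (log2 fold change 0.49, adjusted p = 0.00354). NDUFB9 had 13.20, 13.31 and 13.35 with MELK siRNA, against 12.88, 12.85 and 12.89 with control siRNA (log2 fold change 0.41, adjusted p = 0.00336). In both genes the arrays of a group lay within 0.2 of each other, and the groups did not overlap. NDUFAB1, also the mitochondrial acyl carrier protein, rose by 0.26. UQCRC2, a core subunit of complex III, rose by 0.46, and COX7A2L, which helps complexes III and IV to assemble into supercomplexes, by 0.28. SDHD, a membrane anchor of complex II, rose by 0.45, and was at 0.30 (adjusted p = 0.135) without control replicate 2. The fit of the 6 arrays alone called 1 ATP synthase gene, 2 of complex I and 1 of complexes II to IV. Without control replicate 2, complex I had 2 genes higher and 1 lower.

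Genes of protein import into mitochondria were called upward as reported, but in both directions under other settings. Of 26 measured import and quality control genes, 3 rose and 0 fell (11.5% called, against 5.51% of all genes), with 18 positive and a median of 0.09. TIMM8A rose by 0.45 and TIMM10 by 0.39, both small chaperones of the space between the membranes. TOMM5, of the outer membrane translocase, rose by 0.38. The list had 4 genes higher and 2 lower with array weights, 3 and 2 with probes detected on all 9 arrays, 3 and 2 with a replicate block or without MELK siRNA replicate 1, and 3 and 1 after cyclic loess. Of 24 genes of the citrate cycle and pyruvate dehydrogenase, PDP1 was the only call (4.17%), and 12 had a positive value.

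**Figure D4:**
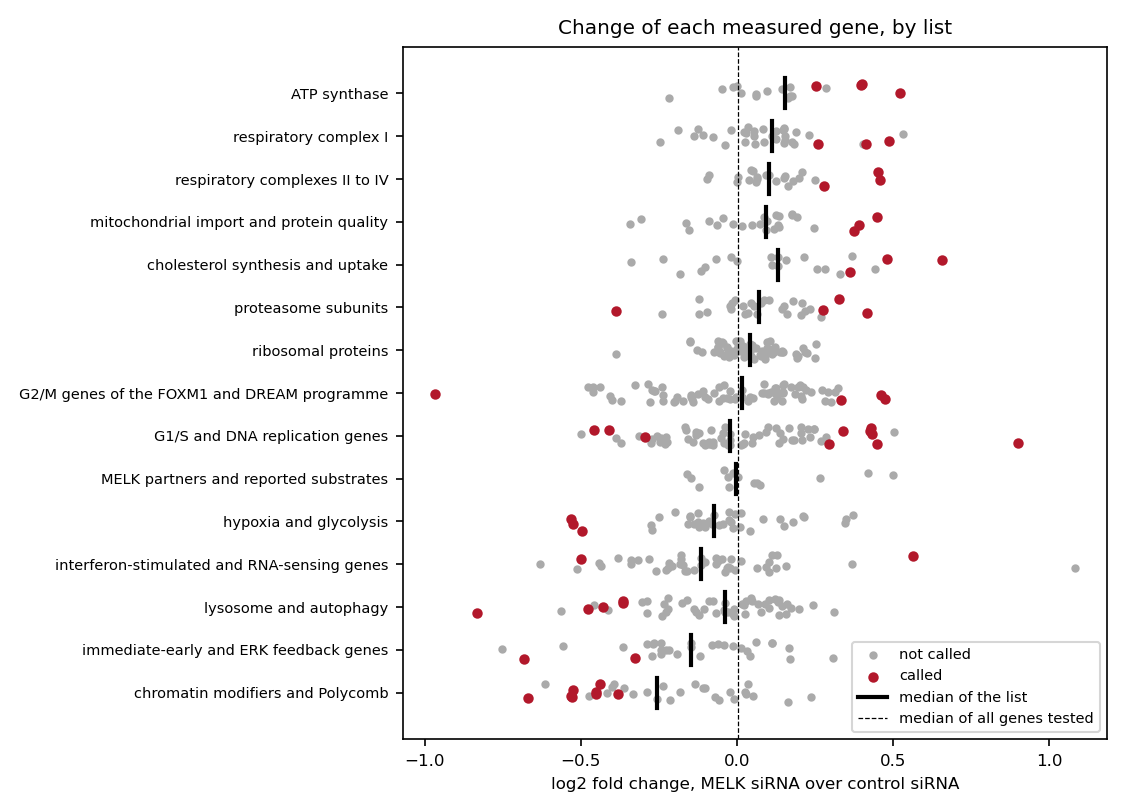
Log2 fold change of MELK siRNA over control siRNA for every measured gene of 15 lists (grey, and red where called), with each list's median as a black bar and the median of all genes as a dashed line. The bars of the respiratory chain and ATP synthase lists lie at 0.10 to 0.15 to the right of the line, and that of chromatin modifiers and Polycomb at -0.26.

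Chromatin regulators were called only in the downward direction. Of 33 measured chromatin modifiers and Polycomb genes, 8 fell and 0 rose with MELK siRNA (24.2% called, against 5.51% of all genes), 6 had a positive value, and the median was -0.26. On 16 of the 33 the MELK siRNA arrays were all below the controls, against 11.9% of all genes. The list was chosen with earlier results of these data known, so neither contrast with all genes is a test. The acetyltransferase CREBBP, a coactivator of many transcription factors, had 7.96, 8.21 and 7.93 with MELK siRNA, against 8.42, 8.65 and 8.63 with control siRNA (log2 fold change -0.53, and -0.12 on a second probe). SETD2, which places the trimethyl mark on lysine 36 of histone H3, had 8.61, 8.71 and 8.58 with MELK siRNA, against 8.92, 9.24 and 9.32 with control siRNA (log2 fold change -0.53). TRRAP, the scaffold of acetyltransferase complexes, had 10.36, 10.10 and 10.02 with MELK siRNA, against 10.59, 10.76 and 10.71 with control siRNA (log2 fold change -0.53, adjusted p = 0.00813). The 3 genes were lower on every MELK siRNA array. KAT6B, another acetyltransferase, fell by 0.67, and the other 4 called members, the remodelling ATPases and subunits ARID1A, CHD4, CHD8 and SMARCA4, were at -0.45 to -0.38. The median lay between -0.35 and -0.11 under the 26 alternatives, with the smallest size in the authors' processed values, and without MELK siRNA replicate 2 1 member was called. With UBE2C siRNA against the same controls CREBBP was at -0.49, SETD2 at -0.58, TRRAP at -0.59 and KAT6B at -0.58.

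Genes of the G2/M programme were called about as often as all genes, in both directions. Of 79 measured genes of the G2/M programme that FOXM1 and DREAM govern, to which MELK itself belongs by function, 3 rose and 1 fell (5.06% called, against 5.51% of all genes), 40 had a positive value and the median was 0.02 (-0.01 after cyclic loess). CENPE, the kinetochore motor that carries chromosomes to the spindle equator, had 7.47, 6.81 and 6.34 with MELK siRNA, against 7.71, 7.93 and 7.88 with control siRNA. PBK, a mitotic kinase, had 10.22, 10.35 and 10.50 with MELK siRNA, against 9.83, 9.75 and 10.07 with control siRNA. CENPE was lower and PBK higher on all MELK siRNA arrays, with log2 fold changes of -0.97 and 0.47, and the CENPE arrays spread over more than 1 within MELK siRNA. A second CENPE probe gave -0.97. CKS2, a subunit of the cyclin-dependent kinases, rose by 0.46 (0.23 on a second probe) and the centrosomal kinase NEK2 by 0.33 (0.10).

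Genes of G1/S and DNA replication were called in both directions. Of 71 measured, 7 rose and 3 fell (14.1% called, against 5.51% of all genes), 33 were positive, and the median was -0.02 (0.08 with median scaling). Besides PRIM2, those that rose most were SLBP, the histone mRNA binding protein, by 0.45 (-0.13 on a second probe), TIPIN of the fork protection complex by 0.43, and the dUTPase gene DUT by 0.43, whose other probes gave -0.43 and 0.45. UHRF1, which brings maintenance methylation to replicated DNA, had 11.80, 11.74 and 11.80 with MELK siRNA, against 12.12, 12.25 and 12.35 with control siRNA, and the maintenance methyltransferase DNMT1 had 12.48, 12.31 and 12.10 with MELK siRNA, against 12.59, 12.79 and 12.74 with control siRNA. Both fell, by 0.46 and 0.41 on the log2 scale, and a second UHRF1 probe gave -0.40. The origin recognition gene ORC6 was at -0.30 (-0.02 on a second probe). Of 33 recombination, Fanconi and checkpoint genes (12.1% called), RMI1 rose by 0.48, while the nuclease scaffold SLX4 (-0.74), the topoisomerase TOP3A (-0.52) and the DNA damage mediator MDC1 (-0.43) fell. Of 22 p53 target genes (9.09% called), the ribonucleotide reductase subunit RRM2B rose by 0.68, with -0.07 on a second probe, and the metabolic regulator TIGAR by 0.45.

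The transcripts of the proteins MELK is reported to bind or phosphorylate were not called in this fit. Of 14 measured, 0 rose and 0 fell, against 5.51% of all genes called, and their median was -0.0045. At that share few calls are due in so short a list, so their absence says little. With array weights 1 member was called higher, and with median scaling 1. FOXM1 had 10.06, 9.62 and 9.39 with MELK siRNA, against 9.85, 10.06 and 9.65 with control siRNA. EZH2 had 7.93, 8.23 and 8.01 with MELK siRNA, against 8.10, 7.97 and 8.19 with control siRNA, and CDC25B had 11.48, 11.31 and 11.31 with MELK siRNA, against 11.32, 11.48 and 11.38 with control siRNA. The groups overlapped in each, and the log2 differences were -0.16 (SE 0.15, adjusted p = 0.561), -0.03 (SE 0.13) and -0.03 (SE 0.08). A second FOXM1 probe gave -0.09, and the other EZH2 probes gave -0.34 and 0.06. The highest values among the rest were 0.50 for SMAD7 and 0.42 for the survival factor MCL1 (-0.16 on a second probe). STRAP was next at 0.27 (adjusted p = 0.0733), and the lowest was -0.15 for EIF4B. SMAD7 was above background on 3 MELK siRNA arrays and no control array, so the filter of 3 arrays may have favoured a high value with MELK siRNA. Of 15 measured AMPK-related kinases and their activators, 0 were called, against the same share of all genes. PRKAA1, the catalytic subunit of AMPK, was at 0.13 (SE 0.10, with 0.38 on a second probe). NUAK1 was at -0.27 (-0.20 on a second probe) and the upstream kinase STK11 at -0.08. MARK2 had the lowest value, -0.999 (SE 0.58), with arrays that overlapped between the groups and a second probe at 0.13.

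Sterol synthesis genes were called upward. This pathway turns acetyl-CoA into cholesterol and is switched on by SREBP2. Of 22 measured genes of cholesterol synthesis and uptake, 3 rose and 0 fell with MELK siRNA (13.6% called, against 5.51% of all genes). A positive value was found for 15, against 50.6% of all genes, and the median was 0.13. CYP51A1, the lanosterol demethylase, had 8.68, 8.45 and 8.66 with MELK siRNA, against 8.02, 7.96 and 7.84 with control siRNA (log2 fold change 0.66, SE 0.12, adjusted p = 0.00642). IDI1, the isopentenyl diphosphate isomerase, had 8.08, 8.03 and 8.09 with MELK siRNA, against 7.60, 7.68 and 7.49 with control siRNA (log2 fold change 0.48). MSMO1, the sterol methyl oxidase, had 9.46, 9.66 and 9.70 with MELK siRNA, against 9.35, 9.20 and 9.18 with control siRNA (log2 fold change 0.36). The groups did not overlap in any of the 3, but the other MSMO1 probes gave -0.21 and -0.10, and the fit of the 6 arrays alone called 1 member. Of 14 fatty acid synthesis genes, 1 was called (7.14%), the fatty acid synthase gene FASN. It had 11.78, 11.79 and 11.82 with MELK siRNA, against 12.27, 12.08 and 12.14 with control siRNA and fell by 0.37.

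The promoters of the 3 sterol genes that rose and of 2 chromatin genes that fell are shown because these lists were called in opposite directions. Each is a window of 300 bases on GRCh38.p14, written along the strand of the gene. For IDI1, MSMO1 and CREBBP most of it lies before the start of the gene's RefSeq span. The CYP51A1 and SETD2 windows lie wholly inside that span, which starts at 92134803 and 47164840 on the minus strand, so they hold no base before it. Capitals mark the CCAAT box (the letters CCAAT on either strand), the site of the factor NF-Y.
CYP51A1, chr7:92134428-92134727, minus strand: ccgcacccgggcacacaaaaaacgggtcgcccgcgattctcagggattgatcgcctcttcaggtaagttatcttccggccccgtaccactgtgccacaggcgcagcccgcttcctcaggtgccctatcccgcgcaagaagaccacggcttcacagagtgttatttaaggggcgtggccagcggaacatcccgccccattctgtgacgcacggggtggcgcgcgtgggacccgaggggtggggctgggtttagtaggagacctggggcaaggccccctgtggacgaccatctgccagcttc
IDI1, chr10:1056655-1056954, minus strand: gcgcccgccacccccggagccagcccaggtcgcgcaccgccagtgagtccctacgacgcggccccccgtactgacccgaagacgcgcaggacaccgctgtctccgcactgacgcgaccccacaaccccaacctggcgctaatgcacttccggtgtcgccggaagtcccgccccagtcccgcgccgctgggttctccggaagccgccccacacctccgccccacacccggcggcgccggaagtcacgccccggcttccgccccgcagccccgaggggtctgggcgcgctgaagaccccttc
MSMO1, chr4:165327419-165327718, plus strand: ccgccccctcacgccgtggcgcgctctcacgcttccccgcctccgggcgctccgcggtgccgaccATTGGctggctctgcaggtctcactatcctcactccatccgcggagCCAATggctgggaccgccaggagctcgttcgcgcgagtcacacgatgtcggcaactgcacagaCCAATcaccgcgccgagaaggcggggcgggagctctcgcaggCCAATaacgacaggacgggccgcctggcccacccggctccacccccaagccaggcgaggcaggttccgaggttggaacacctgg
CREBBP, chr16:3880664-3880963, minus strand: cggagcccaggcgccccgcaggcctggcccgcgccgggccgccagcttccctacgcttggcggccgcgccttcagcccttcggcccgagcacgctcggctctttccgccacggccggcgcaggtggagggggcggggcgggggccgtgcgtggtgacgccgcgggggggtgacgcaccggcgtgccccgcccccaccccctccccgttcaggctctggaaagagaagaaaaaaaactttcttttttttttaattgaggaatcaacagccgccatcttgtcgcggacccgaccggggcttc
SETD2, chr3:47164064-47164363, minus strand: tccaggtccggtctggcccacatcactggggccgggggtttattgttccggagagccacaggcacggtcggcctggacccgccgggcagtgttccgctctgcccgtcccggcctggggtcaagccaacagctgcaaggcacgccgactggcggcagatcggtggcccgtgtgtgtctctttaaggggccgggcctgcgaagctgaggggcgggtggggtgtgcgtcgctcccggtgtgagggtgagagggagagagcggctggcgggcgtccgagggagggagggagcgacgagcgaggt
The MSMO1 window holds 4 matches, and the other windows hold 0. Of the tested genes with a promoter sequence, 37.3% of 9234 held a CCAAT box, against 42.3% of the 213 called higher and 29.9% of the 298 called lower. Among the lists it was 14 of 20 sterol genes (70.0%) and 7 of 29 chromatin genes (24.1%). The sterol response letters TCACNCCAC, on either strand, were in 1 of the 20 sterol promoters and in 1.07% of all. A match is only a description of the letters in this window.

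Promoters of genes that fell were richer in G and C. The median GC content of the window was 64.0% for genes called higher and 69.7% for genes called lower, against 65.0% for all tested, and 70.3% for the measured chromatin modifiers. In the 2309 genes with the most GC (71.7% to 94.0%), 1.52% were called higher and 5.46% lower. In the 2308 with the least (27.7% to 58.3%), 2.34% were called higher and 2.08% lower. The median log2 fold change was -0.05 in the GC-richest genes and 0.03 in the poorest, and with UBE2C siRNA against the same controls -0.09 and 0.01. The part of GC content in the changes of single genes was not tested.

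The called lysosomal genes fell, while median scaling called other ones higher. Proteasome genes were called mostly upward as reported, but not in the fit of the 6 arrays alone. Of 55 lysosome and autophagy genes, 5 fell and 0 rose (9.09% called, against 5.51% of all genes), 22 were positive, and the median was -0.04. With median scaling 5 were called higher and 2 lower, and the median was 0.01. CTSB, the cysteine protease cathepsin B, had 9.04, 8.83 and 8.54 with MELK siRNA, against 9.67, 9.74 and 9.50 with control siRNA (log2 fold change -0.83, SE 0.12, adjusted p = 0.00234, and -0.54 on a second probe). The lysosomal peptidases CTSZ and CTSA were at -0.48 and -0.37, and ATG2A, which moves lipid to the growing autophagosome, at -0.43. Of 30 proteasome subunits, PSMA2 (0.42), PSMD6 (0.33, with -0.05 on a second probe) and PSMD10 (0.27) rose and PSMD1 (-0.39) fell (13.3%). The fit of the 6 arrays alone called 0 proteasome genes higher and 1 lower. Of 67 ribosomal protein genes 0 were called, and their median was 0.04 (-0.06 after cyclic loess).

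Actin genes were called in both directions, and the markers of cell identity that were called fell. Of 30 actin capping, branching and myosin genes, CAPZA1 and the Arp2/3 core subunit ACTR3 (0.38) rose, while ARPC1B (-0.69) and the nonmuscle myosins MYH10 (-0.46) and MYH9 (-0.43) fell, so that 16.7% of the list was called, against 5.51% of all genes. ARPC1B had 9.48, 9.64 and 9.88 with MELK siRNA, against 10.69, 10.08 and 10.29 with control siRNA, with all MELK siRNA arrays below the controls. Of 22 epithelial markers, the tight junction gene CLDN3 (-0.45) and the syndecan gene SDC1 (-0.29) fell (9.09%). The fit of the 6 arrays alone called 0 of these 22. Of 28 mesenchymal and matrix genes, the collagen gene COL5A1 (-0.59) fell (3.57%). None of the 10 PC3 markers was called, and VIM was at -0.11 (-0.07 on a second probe) and CAV1 at 0.08 (-0.17).

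RNA interference and interferon genes were called in both directions, and NF-kB and immediate-early genes that were called fell. The called share was 18.8% of RNA interference genes, 4.26% of interferon genes, 10.0% of NF-kB genes and 6.45% of immediate-early genes, against 5.51% of all genes. Immediate-early genes had 1 higher and 1 lower with median scaling, 1 and 4 with array weights and 1 and 0 without control replicate 1. Of 16 genes of the RNA interference machinery, TSN and PRKRA, the activator of the kinase PKR and a Dicer partner, rose (1.07 and 0.39), and AGO2 fell. AGO2 had 9.93, 9.63 and 9.71 with MELK siRNA, against 10.26, 10.12 and 10.46 with control siRNA (log2 fold change -0.53), with no MELK siRNA array as high as the lowest control. With UBE2C siRNA against the same controls AGO2 was at -0.54. Of 47 interferon-stimulated and RNA-sensing genes, IFIT5 rose by 0.56 and IFIT1 fell by 0.50, 12 were positive, and the median was -0.11. Of 30 NF-kB pathway genes, TNIP1 (-0.46), the kinase IRAK1 (-0.35) and the p50 precursor NFKB1 (-0.32) fell and 0 rose. In that list 18 were positive and the median was 0.06. The fit of the 6 arrays alone called 0 NF-kB genes, and 0 interferon genes higher and 1 lower. Of 31 immediate-early and ERK feedback genes, the mRNA decay factor ZFP36 (-0.68) and PHLDA1 (-0.33) fell, 9 were positive, and the median was -0.15.

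As reported, 3 hypoxia genes were called and none of the apoptosis, unfolded protein and heat shock lists, against 5.51% of all genes. Of 39 hypoxia and glycolysis genes, the stress-responsive gene NDRG1 (-0.53), the carbonic anhydrase CA12 (-0.53, with -0.01 on a second probe) and JMJD1C (-0.50) fell (7.69%), 12 were positive, and the median was -0.07. With median scaling the list had 3 genes higher and 2 lower and a median of 0.00. NDRG1 had 11.11, 10.99 and 11.04 with MELK siRNA, against 11.60, 11.71 and 11.42 with control siRNA, and among 10 luminal and androgen-responsive markers it was also the only call. Of 22 apoptosis regulators 0 were called, with BCL2L1 at -0.07 (SE 0.07) and DIABLO at 0.19 (SE 0.08). A second BCL2L1 probe gave -0.40, and the other DIABLO probes gave -0.16 and 0.20. Of 31 unfolded protein and ATF4 stress genes 0 were called, with HSP90B1 at -0.17 and MANF at -0.14. Of 13 heat shock genes 0 were called, with HSPA8 at 0.09 and HSPB1 at -0.12. With median scaling 1 apoptosis regulator, 2 unfolded protein genes and 1 heat shock gene were called higher. With changes simulated at the spread of these arrays, 38.8% of those of 0.5 on the log2 scale were recovered and 70.1% of those of 1. The simulation changed 67 of 11428 genes at each of these sizes and drew independent normal noise for each gene. Its rates may therefore differ from those of the real arrays.

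Second probes gave a further look at the called genes, within the same arrays. The genes called higher had 96 other kept probes, of which 75 (78.1%) had a positive value, and those called lower had 152, of which 122 (80.3%) had a negative one. Over all genes with other probes, 2407 of 3638 (66.2%) had the sign of the tested probe. The median ratio of the other probe's log2 fold change to the tested one was 0.50 for genes called higher and 0.58 for genes called lower, against 0.62 for all.

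**Figure D5:**
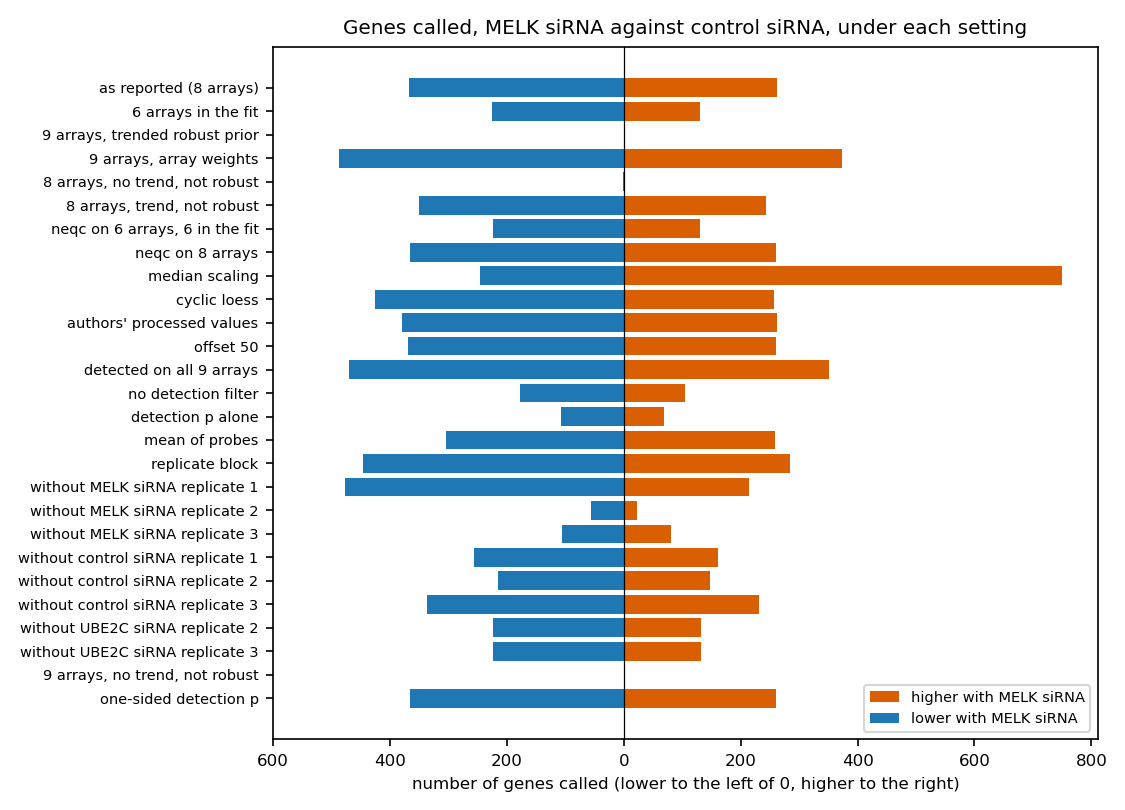
Number of genes called higher (orange, right of 0) and lower (blue, left of 0) with MELK siRNA against control siRNA in limma, as reported and under each of 26 alternatives. The count is 630 as reported, 995 with median scaling, 78 without MELK siRNA replicate 2 and 0 in both fits that hold all 9 arrays at equal weight.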

How the data were processed

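The members and the 31 gene lists (906 of 1067 symbols measured) were chosen with earlier results of these data known, as were the fit and its prior. The deposited file holds linear bead intensities for each probe, neither background-subtracted nor scaled. Beside each intensity stands a detection p-value, per the file headers. The authors' processed values are log2 values, and lumi is the tool given, with no version, per the submitters' processing notes. They were used only as an alternative.

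Intensities of all 9 arrays were background-corrected with an offset of 16 and quantile-normalized by the neqc function of limma 3.58.1 under R 4.3.3. Detection on an array required a p under 0.01 together with a signal higher than the array's background, and 19511 probes detected on 3 or more arrays were kept. The platform annotation lists 1 gene for 30113 of 47323 probes, several for 8 and none for 17202. A RefSeq table of GRCh38.p14 matched 30074 of them and changed 0 symbols. For 2960 genes with more than 1 kept probe the one with the highest mean was tested. Group means were fitted to 8 arrays, without UBE2C siRNA replicate 1, with a trended and robust prior. Adjusted p-values are Benjamini-Hochberg values over 11428 genes, and a gene is called under 0.05.

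Named genes are MELK, the 20 largest called increases and 20 largest decreases without overlap of the arrays, the 10 smallest adjusted p in each direction, up to 4 called members of a list in each direction, and the 2 brightest members of a list without calls. For MELK partners and AMPK-related kinases any member may be named. ARID1A, CHD4, CHD8, SMARCA4 and UBE2C fall outside that rule and were chosen after their values were seen, as were the genes set beside UBE2C siRNA. The fit was tested on simulated data. Pairs of arrays shared at most 14 identical signals. Same-numbered MELK siRNA and control arrays had deviations that correlated at 0.03, -0.06 and 0.18, so the numbers were not taken to pair them. Slide and scan date were not used here, so batches were not tested. Alternatives covered the arrays, the prior, normalization, filters, probe summary and leaving out each array.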

Additional observations from a re-analysis of the deposited data

How the results depend on the processing

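The log2 fold change of MELK kept its sign under all 26 alternatives, and its call was lost only with 9 arrays at equal weight. It was then at -1.09, with an adjusted p of 0.577 with the trended robust prior and 0.884 with neither. Leaving out 1 array at a time gave -1.13 to -1.06. The count of genes called, 630 as reported (262 higher, 368 lower), moved most with the fit. It was 356 (131 and 225) with 6 arrays, 355 (131 and 224) with 6 arrays also normalized alone, and 0 (0 and 0) in both fits of 9 arrays, where 609 and 616 genes had an unadjusted p under 0.05. On 8 arrays it was 1 (0 and 1) with a prior neither trended nor robust, and 593 (243 and 350) with a trended prior that was not robust. It was 995 (749 and 246) with median scaling, 282 (104 and 178) without a detection filter and 175 (68 and 107) with the detection p alone. Leaving out 1 array gave 78 to 692 calls, 22 to 231 higher and 56 to 477 lower, with the fewest without MELK siRNA replicate 2. A replicate block gave 731 calls (285 and 446), and the numbers did not pair the arrays.

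MELK siRNA against UBE2C siRNA gave 2 calls as reported and 8 with array weights. It gave 1 with 9 arrays under either prior, with 8 arrays without trend or robust prior, and with the mean of probes. Leaving out 1 array gave 1 to 3. Of the 112 named genes that were called, 110 remained so in the authors' processed values, 74 with 6 arrays, 29 without MELK siRNA replicate 2 and 0 with 9 arrays at equal weight, and none reversed. Uncalled values near 0 changed sign: EZH2 was at 0.041 with array weights, 0.0090 with median scaling and -0.114 to 0.037 when 1 array was left out, and CDC25B at 0.094 with median scaling and -0.084 to 0.014 when 1 array was left out. The median of all genes moved by 0.04 with median scaling. The cause of these shifts was not tested.

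The size of a change was smaller by over 1.5 times for 33 of these 112 genes in the authors' processed values, 13 with an offset of 50, 12 with the mean of probes and 4 with median scaling. Calls were fewer among dim genes, with 7 higher and 6 lower in the dimmest 2857 genes and 113 and 185 in the brightest 2857.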

Other observations

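Genes called were unevenly spread over signal level. With the tested genes cut by mean signal into 4 groups of 2857, the dimmest held 7 called higher and 6 lower with MELK siRNA than with control siRNA, the next 44 and 48, the third 98 and 129, and the brightest 113 and 185. The median log2 fold change lay between -0.01 and 0.01 in all 4 groups.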
